A study of Homo sapiens with 2 samples.

Results

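Solute carriers are a large class of membrane transporters, and 78 of their genes were described here in adipose-derived mesenchymal stem cells with and without TGFB1. They are the rows named as SLC, a family number, the letter A and a member number that reached 20 CPM (UMI counts scaled to the same library total) in either library. Of 337 rows with such a name, 88 reached that level. The rule leaves out 10 of these by name: the glucose carrier SLC2A3, the lactate carriers SLC16A1 and SLC16A3, and the amino acid transport genes SLC7A1, SLC7A5, SLC7A11, SLC3A2, SLC1A4, SLC1A5 and SLC38A2. The glucose carrier SLC2A1, also left out, lay under the threshold. Levels in the same 2 libraries chose the 78 members, so that every comparison of the libraries given here is a description. Of the 78, 57 reached 20 CPM in both libraries, 9 through the TGFB1 library alone and 12 through the untreated library alone. Under 20 CPM in both libraries were 249 rows, of which 23 had no count at all, and the file held 38606 genes, of which 6680 reached 20 CPM in either library.

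One culture received transforming growth factor beta 1 (TGFB1), a secreted activator of fibroblasts, at 10 ng/mL for 24 h, and the other was left untreated. Both were commercially obtained human cells from adipose tissue that had been grown near confluence and starved overnight, and the labels give neither the number of donors nor the passage. Single-cell transcripts were counted as unique molecular identifiers (UMIs), each standing for 1 captured RNA molecule. With 1 library per group the differences have no replicate check, no p-value is given, and the 95% intervals hold the error of counting alone.

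A solute carrier moves a small molecule or ion across a membrane along its gradient, or against it by coupling to sodium, protons or an exchanged solute. Families sit in different membranes: the SLC25 family mostly in the inner mitochondrial membrane, zinc carriers of the SLC39 family bringing metal into the cytosol and those of the SLC30 family taking it out. In stromal cells such carriers supply amino acids, sulfate and nucleotide sugars for making matrix, and set cell pH and volume through bicarbonate, proton and chloride exchange.

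The TGFB1 library held 12555 cells and 208991941 UMIs and the untreated library 8101 cells and 169011524 UMIs. Cells had a median of 15134 UMIs with TGFB1 and 19249 without. All 9 stromal markers reached 5 CPM and summed to 22626 CPM with TGFB1 and 20090 CPM without. Most of the sum came from COL1A1 (9412 CPM with TGFB1, 6862 without) and COL1A2 (9179 and 7622). DCN (771 CPM with TGFB1, 2010 without), LUM (294 and 599) and NT5E (154 and 282) were more than 1.5-fold lower with TGFB1. The other stromal markers lay within 1.5-fold. None of 5 leukocyte, 4 endothelial, 3 adipocyte and 3 melanocyte markers reached 5 CPM, and CD3E and ADIPOQ had no UMI. Of 6 mural markers ACTA2 alone passed 5 CPM, at 1270 CPM with TGFB1 and 202 CPM without, and of 3 epithelial markers KRT19 alone, at 191 and 675 CPM. Cells with a UMI of the cycling genes MKI67 or TOP2A made up 7.91% of TGFB1 cells and 17.4% of untreated cells. What part these differences in depth, stromal markers, ACTA2, KRT19 and cycling transcripts had in the ratios of the carriers was not tested. Only values without cycling cells are given, with the genes concerned. The libraries shared 18 barcode sequences.

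Most solute carrier genes stood at like levels in both libraries, as did most genes of any kind. Of the 78, 10 (12.8%) were at least 1.5-fold higher with TGFB1, where 9.55% of the 6680 genes were, and 11 (14.1%) at least 1.5-fold lower, where 11.4% of all genes were. Both shares were near those of all genes under scaling to the library total. Of the 10 higher genes, 4 reached 20 CPM through the TGFB1 library alone, and of the 11 lower genes, 8 through the untreated library alone. The choice of these genes therefore leaned to the direction of their call. Under TMM scaling, which trims extreme genes before matching the libraries, 16 (20.5%) were higher and 8 (10.3%) lower, beside 13.4% and 8.13% of all genes. Under median-of-ratios scaling 21 (26.9%) were higher and 7 (8.97%) lower, beside 14.6% and 7.46%. The call was lost under 1 or more alternatives for SLC66A3, SLC25A37, SLC27A4, SLC4A7, SLC26A2 and SLC7A6, and held under each of 9 alternatives for the other 15. The other 57 lay within 1.5-fold, and 50 of the 78 lay within 0.5 on the log2 scale. Over all genes 5283 of 6680 lay within 1.5-fold and 4947 within 0.5, larger shares than among the 78 genes. The median log2 ratio was 0.13 over the 78 genes and −0.07 over all genes. Above 0 were 45 of the 78 log2 ratios, beside 2862 of the 6680 over all genes. At 2-fold, 3 were higher (3.85% of all genes) and 5 lower (4.79% of all genes). Summed over the 78 genes the level was 3743 CPM with TGFB1 and 3908 CPM without, a ratio of 0.958 (interval 0.955 to 0.961), and this sum turned to a log2 ratio of 0.09 under TMM scaling and 0.13 under median-of-ratios scaling. These scalings add 0.15 and 0.19 to every log2 ratio, so that negative ratios closer to 0 than this change sign under them.

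**Figure D1:**
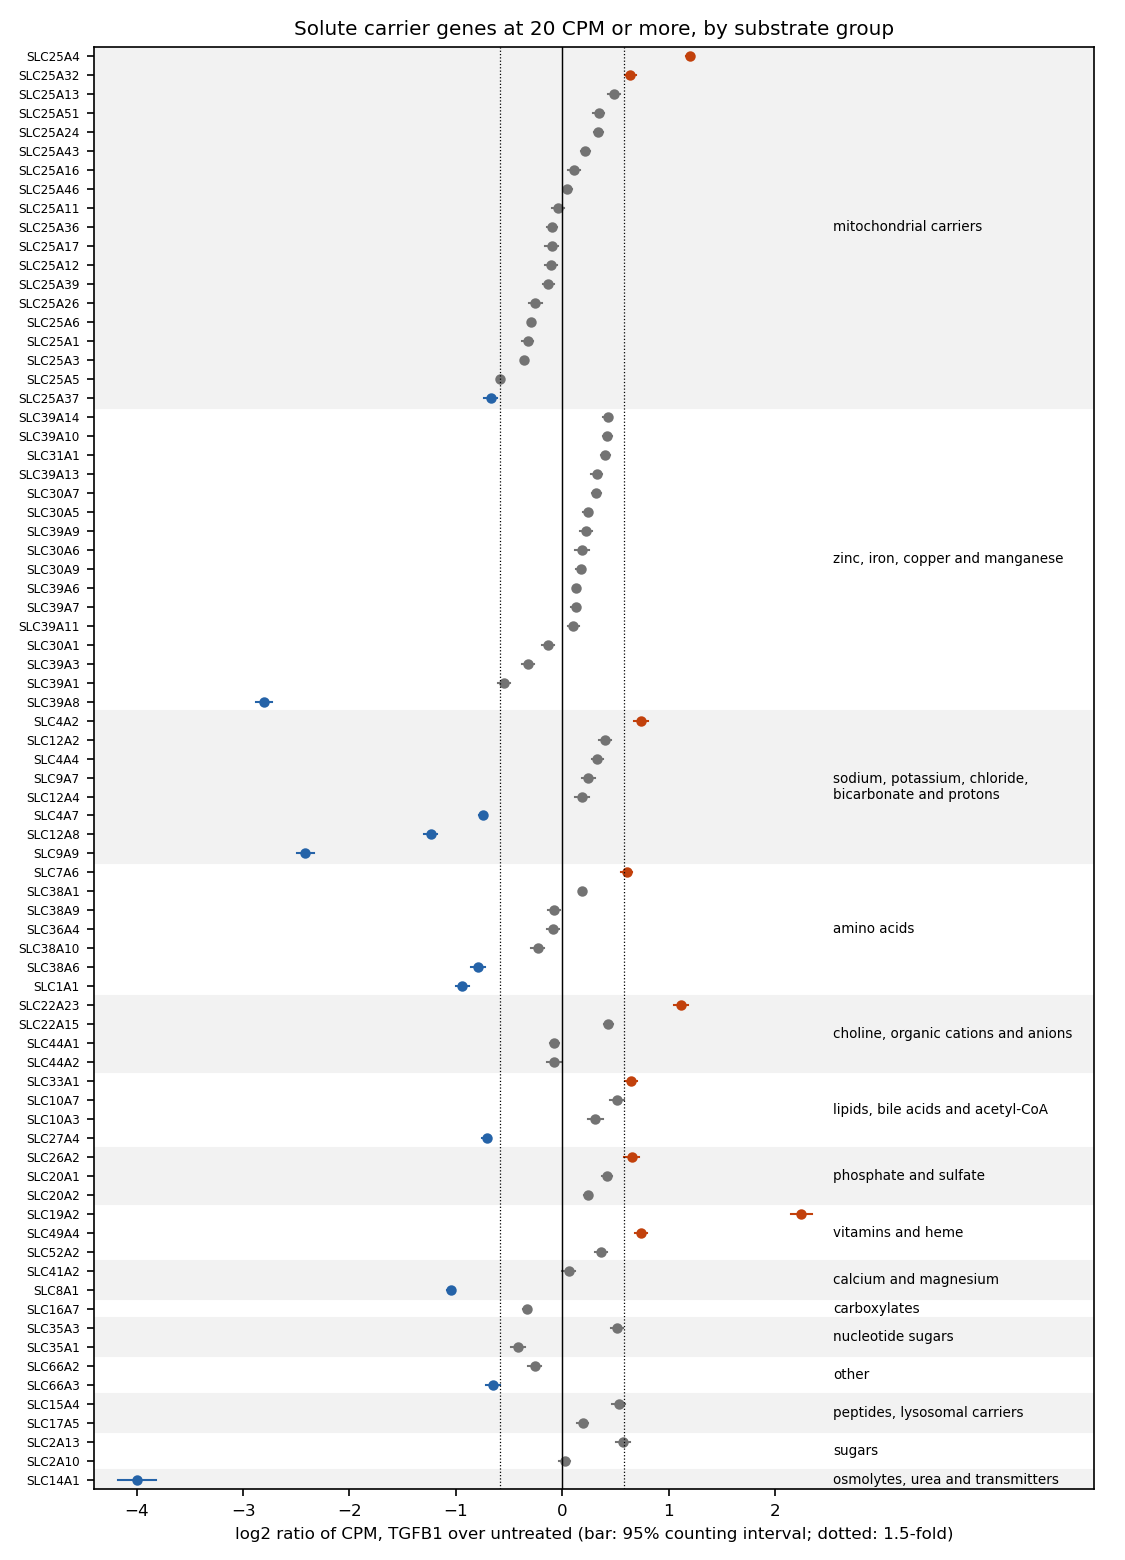
Each point is the log2 ratio of CPM, TGFB1 library over untreated library, for each of 76 solute carrier genes, with its 95% counting interval and grouped by main substrate; dotted lines mark 1.5-fold. The 9 genes past the right line and the 11 past the left line are spread over the groups, and SLC14A1 (−3.996), SLC39A8 (−2.80), SLC9A9 (−2.41) and SLC19A2 (2.25) stand farthest from 0.

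The genes lowest relative to untreated cells were SLC14A1, SLC39A8 and SLC9A9. SLC14A1, the urea transporter of red cells and kidney vessels, had 1.38 CPM (289 UMIs) in the TGFB1 library and 22.1 CPM (3728 UMIs) in the untreated library. It was 15.95-fold lower with TGFB1 (interval 14.1 to 18.04). SLC26A5, a carrier restricted to another tissue, had 1.29 CPM in the TGFB1 library, so the size of the SLC14A1 ratio rests on a level near background. SLC39A8, which imports zinc and manganese, had 7.25 CPM in TGFB1 cells and 50.6 CPM in untreated cells, 6.98-fold lower (6.61 to 7.38). SLC9A9, a sodium/proton exchanger of endosomes, had 7.37 CPM with TGFB1 and 39.3 CPM without, 5.33-fold lower (5.04 to 5.64). Each of the 3 genes reached 20 CPM through the untreated library alone. SLC14A1 lies on chr18:45687025-45752520 (plus strand), SLC39A8 on chr4:102251041-102431258 (minus strand) and SLC9A9 on chr3:143265222-143848531 (minus strand), GRCh38 positions of GENCODE release 29.

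At the other end stood the thiamine carrier SLC19A2 and SLC25A4, 1 of the 3 ADP/ATP carriers. SLC19A2, which takes up thiamine (vitamin B1), had 27.5 CPM in the TGFB1 library and 5.77 CPM in the untreated library, a ratio of 4.76 (interval 4.44 to 5.09). SLC25A4, the ADP/ATP carrier typical of heart and skeletal muscle, had 114 CPM with TGFB1 and 49.8 CPM without, a ratio of 2.30 (2.24 to 2.36). SLC22A23, a carrier of the organic ion family whose substrate is not established, had 33.9 CPM with TGFB1 and 15.6 CPM without, a ratio of 2.17 (2.07 to 2.27). These 3 were the members past 2-fold in this direction, and SLC19A2 and SLC22A23 reached 20 CPM through the TGFB1 library alone. SLC19A2 lies on chr1:169463909-169486003 (minus strand) and SLC25A4 on chr4:185143241-185150382 (plus strand).

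The 250 bases before the start site are shown for the 2 highest and 2 lowest of these genes, 5′ to 3′ on the gene's strand, from RefSeq (GRCh38.p14), with the SMAD-box letters CAGAC or their reverse complement in capitals. The windows are chr1:169485971-169486220 for SLC19A2, chr4:185143016-185143265 for SLC25A4, chr4:102345254-102345503 for SLC39A8 and chr18:45723931-45724180 for SLC14A1, at the first start listed for each gene. For SLC39A8 and SLC14A1 that start lies 86.0 kb and 37.2 kb inside the GENCODE gene span given above. RefSeq lists 3 and 2 starts for these genes, and the windows at the others were not used here.
SLC19A2: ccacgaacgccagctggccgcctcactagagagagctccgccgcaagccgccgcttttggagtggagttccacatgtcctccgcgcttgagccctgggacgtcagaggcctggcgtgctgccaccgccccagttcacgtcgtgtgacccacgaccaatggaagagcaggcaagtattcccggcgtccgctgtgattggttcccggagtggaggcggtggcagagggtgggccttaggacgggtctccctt
SLC25A4: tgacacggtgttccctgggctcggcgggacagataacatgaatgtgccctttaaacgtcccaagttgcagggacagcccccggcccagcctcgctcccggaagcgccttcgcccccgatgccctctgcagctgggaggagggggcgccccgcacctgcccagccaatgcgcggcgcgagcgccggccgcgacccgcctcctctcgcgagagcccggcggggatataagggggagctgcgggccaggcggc
SLC39A8: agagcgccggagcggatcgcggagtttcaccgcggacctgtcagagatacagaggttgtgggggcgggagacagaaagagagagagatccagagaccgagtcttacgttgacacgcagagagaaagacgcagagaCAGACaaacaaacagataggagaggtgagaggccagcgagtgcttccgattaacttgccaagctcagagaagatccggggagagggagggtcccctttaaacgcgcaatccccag
SLC14A1: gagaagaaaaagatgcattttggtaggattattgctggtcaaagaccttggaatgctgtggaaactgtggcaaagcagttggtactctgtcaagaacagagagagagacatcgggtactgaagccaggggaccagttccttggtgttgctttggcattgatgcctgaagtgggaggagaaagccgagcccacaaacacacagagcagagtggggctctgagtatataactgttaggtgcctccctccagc
SLC39A8 held 1 match and the other windows none, and GC content was 65.2% for SLC19A2, 71.6% for SLC25A4, 56.4% for SLC39A8 and 49.6% for SLC14A1. Over both strands CAGAC stood in 21 of the 69 matched members (30.4%), below the 37.8% of 27305 RefSeq windows of that length. It stood in 6 of the 8 matched genes at least 1.5-fold higher with TGFB1 and in 3 of the 10 matched genes at least 1.5-fold lower. The AP-1 letters TGANTCA stood in 2 members (2.90%) and in 6.60% of all windows. TGCACNC and TGCGCNC, letters of the metal response element, stood in 5 (7.25%) and 10 (14.5%) members, against 9.73% and 16.9% of all windows. These are matches of letters and no evidence of binding.

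**Figure D2:**
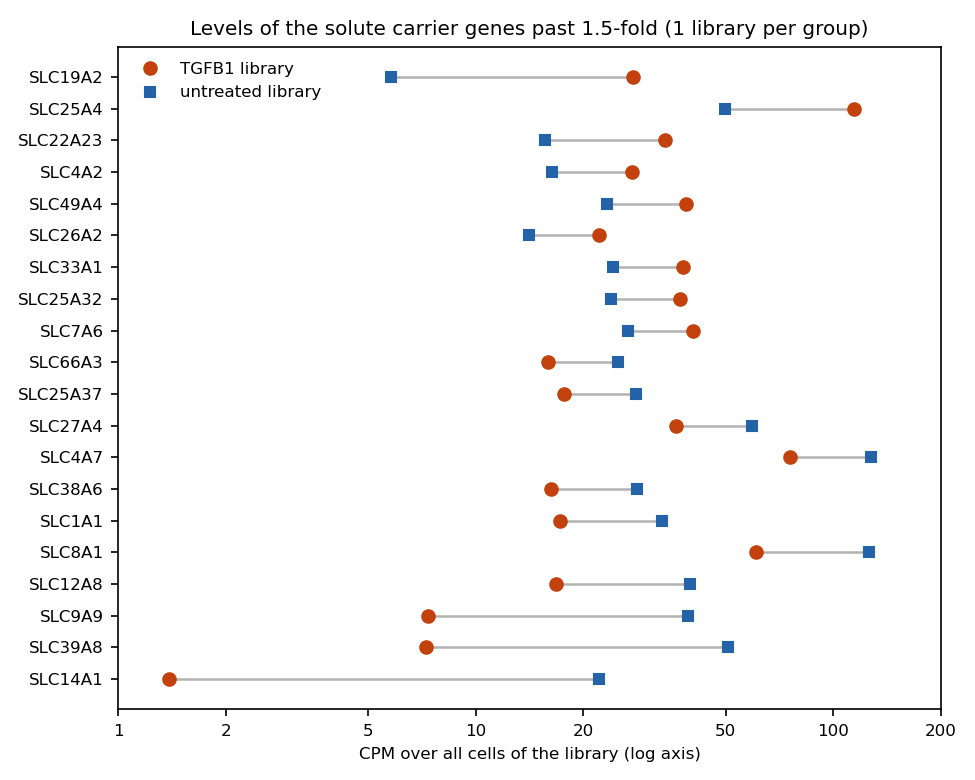
Level in CPM (log axis) of 20 genes at least 1.5-fold apart, in the TGFB1 library (circles) and the untreated library (squares), ordered by ratio. SLC14A1 sits at 1.38 CPM with TGFB1 and 22.1 CPM without, and SLC19A2 at 27.5 and 5.77 CPM.

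Ion carriers differed in both directions. Of 9 genes for sodium, potassium, chloride, bicarbonate or protons, 1 was at least 1.5-fold higher and 3 lower, without a test. Over all genes 9.55% were higher and 11.4% lower. These shares also stand beside the counts of each substrate group below, none of which was tested. SLC12A8, of the cation-chloride cotransporter family, had 16.8 CPM with TGFB1 and 39.6 CPM without, 2.36-fold lower (2.26 to 2.46). SLC4A7, which brings sodium and bicarbonate into the cell, had 75.8 CPM with TGFB1 and 127 CPM without, 1.68-fold lower (1.65 to 1.72). SLC4A2, which exchanges chloride for bicarbonate, had 27.3 CPM with TGFB1 and 16.3 CPM without, a ratio of 1.67 (1.598 to 1.75). Bicarbonate carriers thus went separate ways, and the third of them, the sodium-coupled SLC4A4, had 42.3 CPM with TGFB1 and 33.6 CPM without. The log2 ratios of volume-regulating cotransporters were 0.41 for SLC12A2, which brings chloride in, and 0.19 for SLC12A4, which takes potassium and chloride out. The Golgi exchanger SLC9A7 had a log2 ratio of 0.25, against −2.41 for its endosomal relative SLC9A9.

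Calcium and magnesium were represented by 2 genes. SLC8A1, the sodium/calcium exchanger of the plasma membrane, had 60.7 CPM with TGFB1 and 126 CPM without, 2.07-fold lower (2.02 to 2.12). SLC41A2, of a magnesium carrier family, was at 22.4 CPM with TGFB1 and 21.5 CPM without.

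Metal carriers of zinc, iron, copper and manganese stayed close between the libraries but for SLC39A8. Of 16 genes, 0 were higher and 1 lower at 1.5-fold, with no test made, and the other 15 had log2 ratios between −0.55 (SLC39A1) and 0.43 (SLC39A14). Zinc importers SLC39A10 (0.43), SLC39A13 (0.32), SLC39A9 (0.22), SLC39A6 (0.13), SLC39A7 (0.13) and SLC39A11 (0.11) had ratios above 0 on the log2 scale. SLC39A1 (−0.55) and SLC39A3 (−0.32), of the same family, had log2 ratios below 0. SLC39A14, which like SLC39A8 takes up zinc and manganese, had 48.8 CPM with TGFB1 and 36.3 CPM without. Together SLC39A8 and SLC39A14 therefore showed opposite signs. SLC30A7 (0.32), SLC30A5 (0.24) and SLC30A6 (0.19), which fill the secretory pathway with zinc, and SLC30A9 (0.18), a mitochondrial zinc carrier, had log2 ratios above 0. The plasma membrane exporter SLC30A1 had −0.13, which turned positive under both other scalings. SLC39A6, the zinc carrier with the most UMIs, had 68.0 CPM with TGFB1 and 62.0 CPM without. SLC31A1, the copper importer, had 62.6 CPM with TGFB1 and 47.2 CPM without.

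Mitochondrial carriers were the largest group, with 19 genes and a summed level of 1504 CPM with TGFB1 and 1673 CPM without. Their count was 2 higher and 1 lower, and their median log2 ratio of −0.10 turned to 0.06 under TMM scaling and 0.10 under median-of-ratios scaling. SLC25A3, which carries phosphate for ATP synthesis, had the most UMIs of all 78 genes, with 505 CPM in TGFB1 cells and 649 CPM in untreated cells. SLC25A32, the folate and FAD carrier, had 37.3 CPM with TGFB1 and 23.9 CPM without, a ratio of 1.56 (1.502 to 1.62). SLC25A37, the iron importer mitoferrin, had 17.6 CPM with TGFB1 and 28.1 CPM without, 1.59-fold lower (1.53 to 1.66). Log2 ratios were positive for the aspartate/glutamate carrier SLC25A13 (0.49), the NAD carrier SLC25A51 (0.34), the ATP-Mg/phosphate carrier SLC25A24 (0.34), SLC25A43 (0.22), SLC25A16 (0.11) and the outer membrane protein SLC25A46 (0.05). They were negative for the citrate carrier SLC25A1 (−0.33) and the S-adenosylmethionine carrier SLC25A26 (−0.25). They were also negative, but turned positive under both other scalings, for the glutathione carrier SLC25A39 (−0.13), the second aspartate/glutamate carrier SLC25A12 (−0.10), the peroxisomal SLC25A17 (−0.10), the pyrimidine nucleotide carrier SLC25A36 (−0.10) and the oxoglutarate/malate carrier SLC25A11 (−0.04).

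The ADP/ATP carriers, compared after their values had been seen, shifted between genes more than in sum. They exchange cytosolic ADP for mitochondrial ATP. SLC25A5, the form typical of dividing cells, had 97.9 CPM with TGFB1 and 147 CPM without, just inside 1.5-fold. SLC25A6, the form found in most tissues, had 278 CPM with TGFB1 and 341 CPM without, and the 3 genes summed to 490.0 CPM with TGFB1 and 537 CPM without. SLC25A4 made up 23.3% of the 3 genes' UMIs with TGFB1 (interval 23.1 to 23.6%) and 9.26% without (9.07 to 9.45%). Cluster by cluster it took 36.2% of TGFB1 and 34.1% of untreated cells' UMIs in cluster 7, where the libraries were close. In the clusters richest in cycling genes it took 10.3% (cluster 8, TGFB1) and 5.59% (cluster 6, untreated), while SLC25A5 took 37.3% and 41.8%. Leaving out every cell with an MKI67 or TOP2A UMI gave log2 ratios of 1.17 for SLC25A4 and −0.49 for SLC25A5, against 1.2 and −0.58 with all cells. UMIs were not divided by transcript length, and reads of these near-identical genes and their pseudogenes may have been split in ways the counts do not show.

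**Figure D3:**
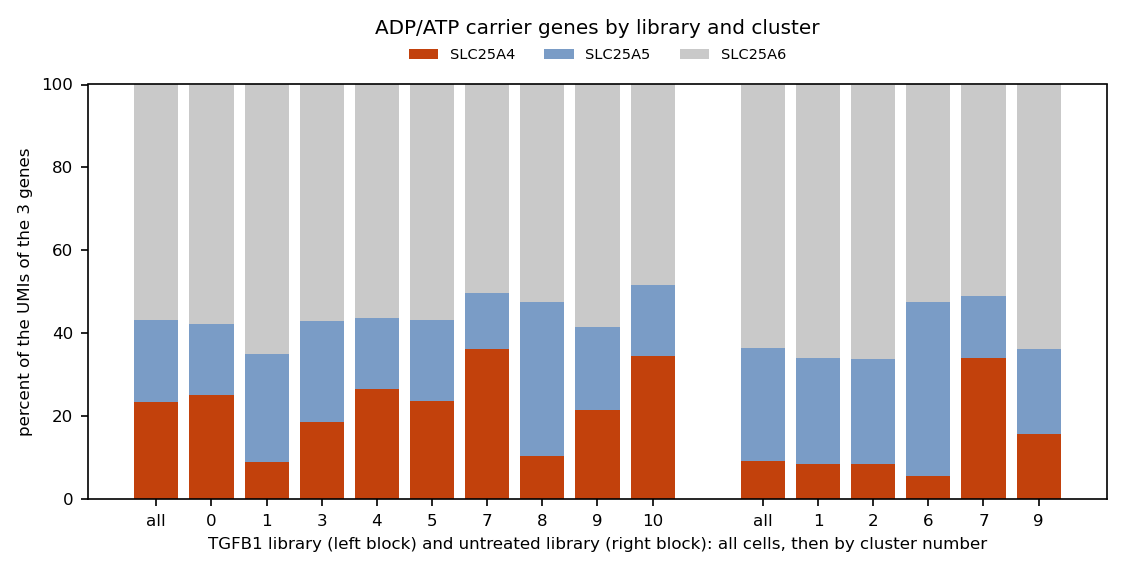
Percent of the UMIs of the ADP/ATP carrier genes SLC25A4, SLC25A5 and SLC25A6 that each made up, over all cells and in each cluster with 50 or more cells, TGFB1 library left and untreated library right. SLC25A4 takes 23.3% in the TGFB1 library and 9.26% in the untreated library, and over 34% in cluster 7 of both.

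Amino acid carriers showed no common direction. Of 7 genes, 1 was higher and 2 lower at 1.5-fold, and the median log2 ratio of −0.09 turned to 0.07 under TMM scaling and 0.10 under median-of-ratios scaling. SLC1A1, which takes up glutamate and cysteine, had 17.2 CPM with TGFB1 and 33.1 CPM without, 1.92-fold lower (1.84 to 2.001). SLC38A6, of the neutral amino acid family, had 16.3 CPM with TGFB1 and 28.2 CPM without, 1.73-fold lower (1.66 to 1.81). SLC7A6, a light chain for exchange of cationic and neutral amino acids, had 40.6 CPM with TGFB1 and 26.6 CPM without, a ratio of 1.52 (1.47 to 1.58). SLC38A1, the glutamine importer with the most UMIs of the group, had 246 CPM with TGFB1 and 216 CPM without. The lysosomal arginine sensor SLC38A9 (−0.08), SLC36A4 (−0.09) and SLC38A10 (−0.23) completed the group with negative log2 ratios, of which those of SLC38A9 and SLC36A4 turned positive under both other scalings.

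The 3 vitamin and heme carriers and the 3 phosphate and sulfate carriers outside mitochondria had the higher level with TGFB1. The 2 sugar carriers and the 2 peptide and lysosomal carriers also had log2 ratios above 0. These groups are small and were set by hand with earlier results of these data known. Over all genes, 9.55% were at least 1.5-fold higher and 2862 of 6680 had a log2 ratio above 0. SLC49A4, a lysosomal membrane carrier, had 38.8 CPM with TGFB1 and 23.2 CPM without, a ratio of 1.67 (1.61 to 1.74). SLC52A2, the riboflavin importer, had 33.9 CPM with TGFB1 and 26.3 CPM without. Vitamin and heme carriers numbered 3, of which 2 passed 1.5-fold. SLC26A2, which imports sulfate for proteoglycan chains, had 22.2 CPM with TGFB1 and 14.1 CPM without, a ratio of 1.57 (1.495 to 1.65). The sodium/phosphate importers had 72.8 CPM with TGFB1 and 61.6 CPM without for SLC20A2, and 44.1 and 32.9 CPM for SLC20A1. The phosphate and sulfate group thus held 3 genes with 1 past 1.5-fold.

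Carriers of choline and organic ions held 4 genes, of which SLC22A23 alone passed 1.5-fold. SLC22A15, of the same family as SLC22A23, had 55.8 CPM with TGFB1 and 41.3 CPM without. Both choline carriers were at like levels, SLC44A1 with 51.7 CPM in TGFB1 cells and 54.4 CPM in untreated cells and SLC44A2 with 19.1 and 20.2 CPM. SLC16A7, a pyruvate and lactate carrier, had 65.0 CPM with TGFB1 and 81.9 CPM without.

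Among lipid, bile acid and acetyl-CoA carriers 1 of 4 genes was higher and 1 lower at 1.5-fold. SLC33A1, which brings acetyl-CoA into the endoplasmic reticulum, had 37.9 CPM with TGFB1 and 24.2 CPM without, a ratio of 1.56 (1.51 to 1.63). SLC27A4, a fatty acid transport protein, had 36.2 CPM with TGFB1 and 59.4 CPM without, 1.64-fold lower (1.59 to 1.69). Of the bile acid carrier family, SLC10A7 had 24.9 CPM with TGFB1 and 17.3 CPM without, and SLC10A3 had 20.04 and 16.1 CPM. These are distant members of their family, placed here by name rather than by known substrate.

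The inositol carrier SLC2A13 had 24.9 CPM with TGFB1 and 16.8 CPM without, just under 1.5-fold, and the glucose carrier family member SLC2A10 had 31.5 and 31.03 CPM. Of the nucleotide sugar carriers of the Golgi, SLC35A3, for UDP-N-acetylglucosamine, had 34.1 CPM with TGFB1 and 23.9 CPM without, and SLC35A1, for CMP-sialic acid, 18.7 and 24.95 CPM. Their signs were opposite under each scaling. The lysosomal peptide and histidine carrier SLC15A4 had 29.1 CPM with TGFB1 and 20.1 CPM without, and the lysosomal sialic acid exporter SLC17A5 had 34.1 and 29.8 CPM. SLC66A3 had 15.9 CPM with TGFB1 and 24.99 CPM without, 1.57-fold lower (1.499 to 1.64), and SLC66A2 had 19.4 and 23.2 CPM. No nucleoside carrier with a name of this form reached 20 CPM.

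Just inside the threshold were SLC10A3 (20.04 CPM with TGFB1, 16.1 without), SLC44A2 (19.1 and 20.2) and SLC12A4 (20.8 and 18.3). Just outside were SLC16A4 (14.1 CPM with TGFB1, 19.8 without), SLC13A3 (15.8 and 18.9) and SLC23A2 (13.5 and 18.6).

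The share of cells with at least 1 UMI differed in the same direction as the CPM for the genes farthest apart, with cells at their own depth and at equal depth. Each cell was thinned to 7500 UMIs, which kept 9330 TGFB1 and 7646 untreated cells and left out 3225 and 455. SLC14A1 was then counted in 0.825% of TGFB1 cells and 11.3% of untreated cells (1.66% and 18.7% unthinned). SLC39A8 was counted in 4.57% and 20.7% (8.44% and 35.6% unthinned), and SLC9A9 in 4.73% and 20.8% (9.62% and 39.2% unthinned). SLC19A2 was counted in 17.5% of TGFB1 cells and 4.03% of untreated cells (30.6% and 10.2% unthinned). SLC25A4 was counted in 51.1% and 26.6% (64.4% and 49.4% unthinned), and SLC22A23 in 19.8% and 9.89% (32.7% and 22.6% unthinned). Among 10 carriers restricted to other tissues, the highest thinned share was 0.986% in TGFB1 cells and 0.693% in untreated cells, both for SLC26A5, the motor protein of the inner ear. The share of SLC14A1 in TGFB1 cells lay below that of SLC26A5 but above the next highest, SLC12A1 (0.354%). It is therefore read as near background, although the 56 TGFB1 cells of cluster 1 had 21.5 CPM of SLC14A1. In untreated cells its share lay above that of each of the 10 genes. SLC34A1, SLC17A7 and SLC22A12 had no UMI. Over all 78 genes, 45 had the larger thinned share in TGFB1 cells, while 19 had it without thinning.

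The authors' clusters split nearly by library, so that most clusters describe 1 library only. Clusters 0, 3, 4, 5 and 8 held 5303, 2543, 2421, 1218 and 348 TGFB1 cells, and clusters 1, 2 and 6 held 3687, 3094 and 842 untreated cells. Cluster 7 held 303 TGFB1 and 274 untreated cells, cluster 9 held 183 and 108, and cluster 10 held 113 and 33. Since clusters were formed from the same counts, levels by cluster are a description. Between the highest and the lowest cluster of at least 200 cells, the median gene differed 1.68-fold in the TGFB1 library and 1.71-fold in the untreated library. At least 2-fold spread was seen for 26 genes in each library, and at least 3-fold for 10 genes in the TGFB1 and 8 in the untreated library. The spread was not computed over all genes, so these counts are not read as a trait of solute carriers.

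Several of the genes that differed most between libraries also differed most among clusters. SLC39A8 stood at 22.4 CPM in cluster 7 and 2.26 CPM in cluster 3 of the TGFB1 library, 9.88-fold apart (7.76 to 12.6), and at 71.5 CPM in cluster 1 and 12.4 CPM in cluster 6 of the untreated library. SLC14A1 stood at 39.8 CPM in cluster 6 and 5.26 CPM in cluster 7 of the untreated library, 7.57-fold apart (5.42 to 10.9). Cluster 6 was the untreated cluster with the most cycling transcripts (MKI67 at 225 CPM). Over the libraries without cells that had an MKI67 or TOP2A UMI the log2 ratio of SLC14A1 was −3.91, against −3.996 with all cells. SLC9A9 stood at 57.8 CPM in cluster 1 and 10.5 CPM in cluster 7 of the untreated library. SLC25A4 ran the other way there, with 189 CPM in cluster 7 and 34.5 CPM in cluster 6. SLC22A23 stood at 33.6 CPM in cluster 7 and 7.95 CPM in cluster 2 of the untreated library. In the TGFB1 library SLC12A8 stood at 32.9 CPM in cluster 7 and 6.98 CPM in cluster 8, SLC22A15 at 78.4 CPM in cluster 0 and 17.4 CPM in cluster 4, and SLC10A7 at 32.9 CPM in cluster 3 and 9.07 CPM in cluster 4. Among clusters of at least 200 cells, cluster 7 had the highest level of 5 of these 8 genes in at least 1 library. SLC22A15 was among them with 73.0 CPM in untreated cells. Smaller clusters stood higher than cluster 7 of the same library for SLC39A8 (59.1 CPM in TGFB1 cluster 1) and SLC22A23 (54.4 CPM in untreated cluster 9). In the TGFB1 library this also held for SLC12A8 (54.6 CPM in cluster 1) and SLC22A15 (131 CPM in cluster 9, 72.3 CPM in cluster 7). For SLC12A8 and SLC22A15 untreated cluster 7 (58.3 and 73.0 CPM) stayed the highest untreated cluster among those with 50 or more cells.

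**Figure D4:**
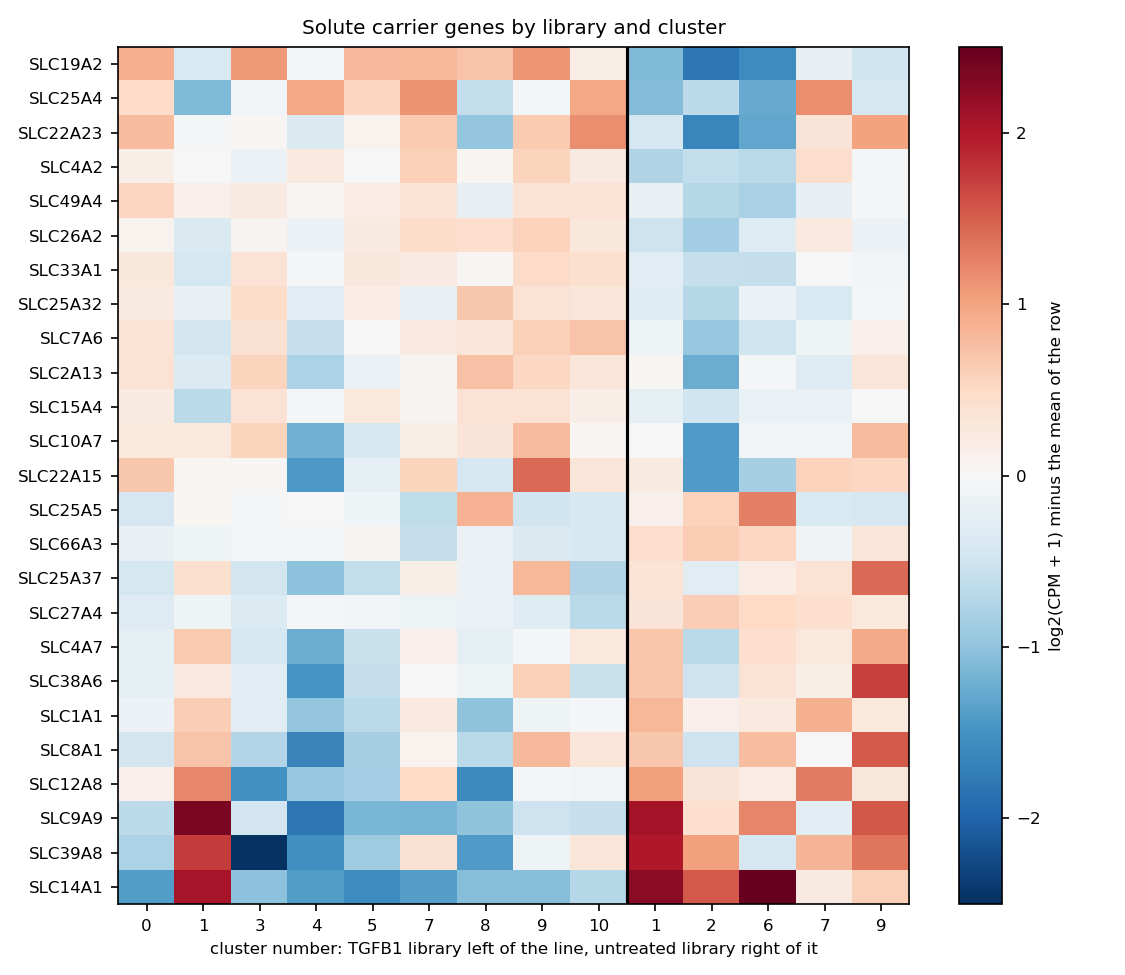
Level of 25 solute carrier genes in each cluster with 50 or more cells, as log2(CPM + 1) minus the mean of the row, with TGFB1 clusters left of the line and untreated clusters right of it. SLC14A1 and SLC9A9 lie below their row mean in every TGFB1 cluster shown but cluster 1, where the 56 TGFB1 cells have 21.5 CPM of SLC14A1 against 24.5 CPM in the untreated cells.

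Within clusters 7 and 9, which both libraries shared, most of the 21 genes had the sign of the whole libraries, as did most called genes of any kind. In cluster 7, 9 of the 10 higher and 10 of the 11 lower genes had the sign seen over the whole libraries, and 2 and 4 of them passed 1.5-fold. The counting interval lay beyond 0 for 5 of the 10 and 7 of the 11. In cluster 9 the counts were 9 of 10 and 11 of 11, with 3 and 7 past 1.5-fold and 6 and 9 intervals beyond 0. Among all 638 higher and 759 lower genes, 98.1% and 92.0% had the same sign in cluster 7, and 96.1% and 94.6% in cluster 9. Past 1.5-fold were 33.1% and 25.3% of them in cluster 7, and 61.9% and 61.4% in cluster 9. The 3 of 10 higher members in cluster 9 thus lay below the share of all higher genes. SLC19A2 had 28.3 CPM in TGFB1 and 13.3 CPM in untreated cells of cluster 7, and 34.1 and 10.7 CPM in cluster 9. SLC9A9 had 5.21 CPM in TGFB1 and 10.5 CPM in untreated cells of cluster 7, and 8.67 and 39.6 CPM in cluster 9. SLC39A8 had 22.4 CPM in TGFB1 and 31.6 CPM in untreated cells of cluster 7, and 15.5 and 44.7 CPM in cluster 9. For these genes the difference was smaller in cluster 7 than over the libraries. SLC14A1 had 1.07 CPM in TGFB1 cells (7 UMIs) and 5.26 CPM in untreated cells (36 UMIs) of cluster 7. SLC25A4 was at 184 CPM in TGFB1 and 189 CPM in untreated cells of cluster 7, a log2 ratio of −0.04, and at 81.2 and 62.0 CPM in cluster 9. SLC8A1 likewise had 101 CPM in TGFB1 and 96.3 CPM in untreated cells of cluster 7, and 168 and 278 CPM in cluster 9. The 56 TGFB1 cells in cluster 1 were close to the untreated cells there, with SLC14A1 at 21.5 and 24.5 CPM, SLC39A8 at 59.1 and 71.5 CPM, SLC9A9 at 69.8 and 57.8 CPM and SLC25A4 at 38.5 and 38.8 CPM. In that cluster 7 of the 10 higher and 7 of the 11 lower genes had the same sign, 2 and 0 passed 1.5-fold in their direction, and 1 interval of each lay beyond 0. All called genes had the same sign there in 77.9% (higher) and 70.6% (lower), and 11.3% and 6.59% of them passed 1.5-fold.

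Clusters 4 (TGFB1) and 2 (untreated) had low levels of many solute carriers, as of many other genes. In cluster 4, 29 of the 78 genes (37.2%) were at least 1.5-fold below the rest of the TGFB1 library, and in cluster 2, 32 (41.03%) were so against the rest of the untreated library. Over all 6680 genes these shares were 29.4% in cluster 4 and 29.6% in cluster 2. The 25 genes low in both made up 86.2% of the cluster 4 list and 78.1% of the cluster 2 list, and over all genes the overlap was 91.2% and 90.6% of those lists. Above the rest in both clusters were 15 genes, among them the mitochondrial carriers SLC25A1, SLC25A3, SLC25A4, SLC25A5, SLC25A6, SLC25A11 and SLC25A39. Among clusters of at least 200 cells, cluster 4 was the lowest of its library for 43 of the 78 genes and cluster 2 for 47. Neither these counts nor that of the 15 genes were made over all genes.

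Gene span went with the level in these clusters. Of the 25 genes low in both, 17 spanned 100 kb or more and 0 under 20 kb, with SLC19A2 the shortest at 22.1 kb. Of the 75 members with a GENCODE position, the 24 spanning over 100 kb had a median log2 ratio of −0.97 in cluster 4 and −1.03 in cluster 2 against the rest of their library. The 17 under 20 kb had 0.19 in both clusters, and the 34 between had −0.45 in cluster 4 and −0.47 in cluster 2. Across the 75 genes, Spearman's rho between span and ratio was −0.81 in cluster 4 and −0.80 in cluster 2, and all 6441 genes at 20 CPM with a position gave −0.78 and −0.77. The relation was therefore not particular to solute carriers. In cluster 1, against the rest of the untreated library, rho was 0.83 for the 75 and 0.75 for all. Clusters 1 and 2 held 45.5% and 38.2% of the untreated cells, so each made up much of the rest for the other. The cluster 1 value is therefore not separate from that of cluster 2. For the ratio of TGFB1 to untreated cells rho was −0.05 over the 75 and 0.15 over all genes. Points share a library and cells, and genes are not independent replicates. Gene span, intron content and transcript length were not separated.

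**Figure D5:**
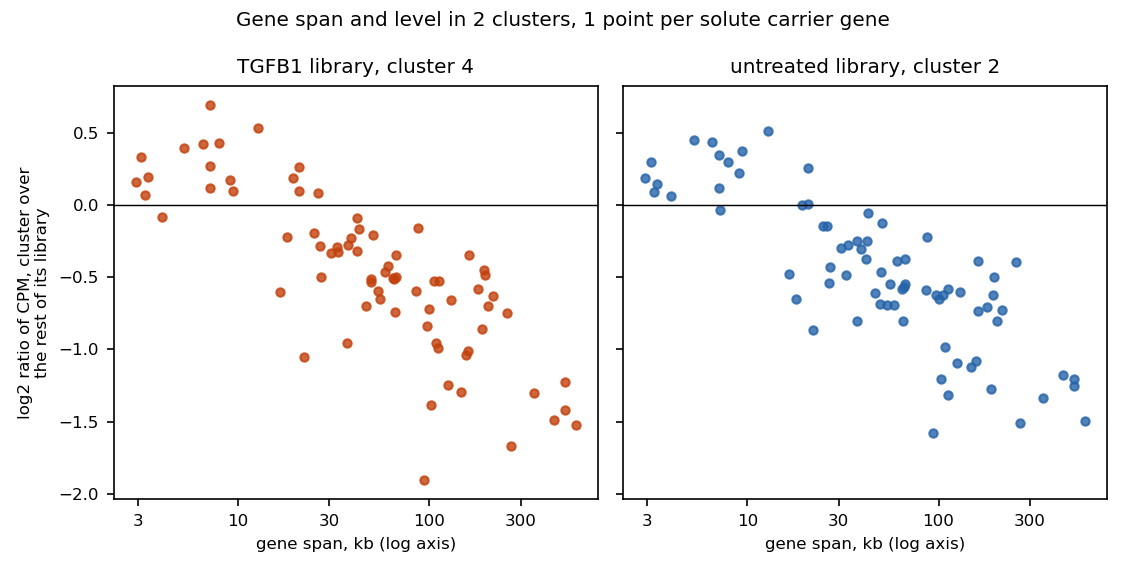
Log2 ratio of CPM in cluster 4 over the rest of the TGFB1 library (left) and in cluster 2 over the rest of the untreated library (right), against gene span in kb (log axis), 1 point for each of 75 solute carrier genes. Genes over 100 kb have medians of −0.97 and −1.03 and genes under 20 kb of 0.19 in both.

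Transporters of other kinds were set beside the solute carriers with names of the A form. Of 38 at 20 CPM (other SLC letters, SLCO, sodium and calcium pumps, the proton pump and ABC transporters), 5 (13.2%) passed 1.5-fold upward and 7 (18.4%) downward, beside 9.55% and 11.4% of all genes, and their median log2 ratio was −0.03. ATP1B1, a subunit of the sodium pump, had the highest ratio of them with 58.3 CPM in TGFB1 cells and 25.9 CPM in untreated cells. ABCA9, a lipid-type ABC transporter, had 2.68 CPM with TGFB1 and 21.8 CPM without. Of the 8 ABC transporters, 4 were lower and 0 higher at 1.5-fold, without a test and beside 11.4% lower and 9.55% higher over all genes.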

How the data were processed

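UMIs per gene and cell are the raw counts the authors deposited for 2 libraries, and a deposited table lists each cell's library, cluster number (resolution 0.4), UMI and gene counts and percent of mitochondrial UMIs. GRCh38, Cell Ranger 9.0.1 and Seurat stand in the submitters' processing notes with no role named. Gene annotation: not given in the sources used here. Genes stand under symbols only.

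Sums of UMIs by library or cluster, divided by the total there, gave CPM. No further filter on cells was used, no doublet caller was run and doublets were kept. Ratios divide TGFB1 by untreated levels, with 95% intervals from the exact binomial split of a gene's UMIs between libraries (Clopper-Pearson). Shares of cells also carry Clopper-Pearson intervals. No p-value was computed. A gene was called higher or lower from 1.5-fold, chosen as a size and not as a test. Genes at 0 could hold up to 3 UMIs by chance of counting, which is 0.0144 CPM with TGFB1 and 0.0178 CPM without. UMIs were not divided by length, so levels are compared within a gene. Whether counting used strand was not known from the labels: of 75 members with a GENCODE release 29 position, 47 overlap a gene on the other strand and 31 one on the same strand, so their counts may include reads of a neighbour. Substrate groups were set by hand from gene names and known roles. The members and lists were chosen with earlier results of these data known.

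Values in full are given for the 12 highest and 12 lowest ratios, the 2 members with most UMIs in each substrate group, the 8 largest spreads among clusters and the 3 genes on each side of 20 CPM. Some members that the rule names count in the totals but are not reported here by name or shown in the plots. ADP/ATP carriers, gene span and clusters 2 and 4 were looked at after values had been seen. edgeR 4.0.16 (R 4.3.3) gave TMM factors only. DESeq2 itself was not used. Other tools were matplotlib 3.10.9, pandas 2.3.3, scipy 1.17.1, numpy 2.4.6 and Python 3.11.15. On simulated counts for 6680 genes under the comparison of TGFB1 with untreated cells, 100 of 100 genes changed 4-fold passed 1.5-fold, and 0 of 100 changed 1.2-fold did. For 95.2% of 6480 unchanged genes the interval held the true ratio set in the simulation, which checks the calculation only.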

Additional observations from a re-analysis of the deposited data

How the results depend on the processing

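Both the scaling and the minimum level moved the counts. TMM moved the median log2 ratio of all genes by 0.15 and median-of-ratios scaling by 0.19. At least 1.5-fold higher were then 16 and 21 members, against 10, and lower were 8 and 7, against 11, while 13.4% and 14.6% of all genes were higher and 8.13% and 7.46% lower. The members' median log2 ratio was 0.29 under TMM, 0.32 under median of ratios, 0.18 with equal weight per cell, and 0.13 as reported. The log2 ratio of the summed CPM of members was 0.0923, 0.13 and −0.0539 in that order of settings, and −0.0876 without clusters 2 and 4, an alternative chosen after seeing the data, against −0.0623. A minimum of 40 CPM left 29 genes, with 3 higher, 4 lower (11.2% and 10.8% of all genes) and a median of 0.18, and 5 of 9 substrate groups had a median above 0. A minimum of 5 CPM held 135 genes with 21 lower (14.2% of all genes) and a median of −0.0376. A minimum of 10 UMIs held 257 genes with 33 higher, 62 lower (11.8% and 25.3% of all genes) and a median of −0.15, and 5 of 16 groups had a median above 0, against 10 of 15. At 2-fold, 3 were higher and 5 lower. Without thinning, 19 members had the larger share in TGFB1 cells, against 45.

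Of the 21 called genes, 15 stayed past 1.5-fold in the same direction under all 9 alternatives, and none turned its direction. Log2 ratios under TMM were −0.49 for SLC66A3, −0.52 for SLC25A37 and −0.56 for SLC27A4. SLC4A7 had −0.56 under median of ratios, and without clusters 2 and 4 SLC26A2 had 0.57 and SLC7A6 0.55. The cause was not tested where the setting's own construction does not show it. No paired analysis was possible because each group has 1 library, and no library could be left out. Depth limits SLC14A1 in the TGFB1 clusters, where UMIs were few.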

Other observations

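Solute carriers of the same name form between 5 and 20 CPM, outside the rule, numbered 57, of which 3 were at least 1.5-fold higher with TGFB1 and 10 lower. Of all 4248 genes in that range, 6.71% were higher and 18.6% lower. SLC40A1, the cell's iron exporter ferroportin, had 0.48 CPM with TGFB1 and 7.38 CPM without. SLC6A6, which takes up taurine, had 4.65 CPM with TGFB1 and 15.5 CPM without. The 3 higher genes were SLC7A8, a neutral amino acid exchanger, with 16.6 CPM in TGFB1 cells and 4.74 CPM in untreated cells, SLC38A5, a glutamine carrier, with 12.1 and 5.16 CPM, and SLC49A3 with 11.6 and 4.80 CPM. These 5 genes were named after their values were seen.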
